A study of Mus musculus with 6 samples.

Results

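Matrix metalloproteinases (MMPs) are zinc-dependent proteases that cleave collagens, proteoglycans and other proteins of the extracellular matrix, and tissue inhibitors of metalloproteinases (TIMPs) bind their active sites. Most MMPs are secreted as inactive precursors. The precursor of Mmp2 is activated at the cell surface by the membrane-bound Mmp14 with Timp2 as a bridge, so Timp2 takes part in activation as well as in inhibition. In bone, osteoblasts produce Mmp13, Mmp14 and Mmp2, and Mmp9 is best known from osteoclasts. Here 10 genes of this family (Mmp2, Mmp3, Mmp9, Mmp11, Mmp13, Mmp14, Mmp19, Timp1, Timp2 and Timp3), chosen by gene symbol, were followed among 53801 gene identifiers in MC3T3-E1, a line of pre-osteoblasts from mouse calvaria.

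The comparison asked how the expression profile of pre-osteoblasts changed when Hdac4, a class IIa histone deacetylase, was knocked down. The 3 Control libraries came from cells infected with a lentivirus that carried scrambled non-silencing RNA, and the 3 Hdac4-knockdown libraries from cells infected with an Hdac4-shRNA lentivirus. Both groups carried the same vector with a ZsGreen1 reporter and were selected with 5 μg/mL puromycin for 7 days, so both are infected, drug-selected populations of one cell line, with a single shRNA sequence behind the knockdown. RNA was poly-A selected, and 3 independent RNA samples were taken for each group. Whether these came from separate infections is not stated, so p-values measure the spread between these RNA samples.

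Each library held 29096544 to 31651826 reads counted on genes. Hdac4, the targeted gene, stood at 73.6% of its Control level, with 40.3 ± 0.412 CPM (counts scaled to library size, SD, n = 3) in Control and 29.6 ± 0.981 CPM (SD, n = 3) in knockdown libraries (log2 fold change -0.44, adjusted p = 8.98e-07, edgeR). The change across the transcriptome was broad. Of 14531 genes tested, 38.0% were upregulated and 37.1% were downregulated (adjusted p below 0.05, log2 fold change outside -0.05 to 0.05), and counts of the 10 genes have to be read against these shares. Knockdown libraries had counts on 22148 to 22640 genes, against 19373 to 19797 in Control, and 4.64% to 5.07% of their reads fell outside annotated features, against 3.17% to 3.41%. What these values contribute to the results below was not tested.

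All 10 genes passed the filter on low counts, although Mmp3 passed it through the knockdown libraries alone. Of the 10 genes, 7 were upregulated (Mmp2, Mmp3, Mmp9, Mmp13, Mmp14, Timp2 and Timp3), 1 was downregulated (Mmp11), and 2 did not pass the test (Mmp19 and Timp1). The 7 upregulated genes all had a log2 fold change above 1, which 16.5% of all tested genes reached, with Mmp14 on the border at 1.00. None fell by more than 1 on the log2 scale, which 10.6% of all tested genes did. Their median log2 fold change was 1.31, and that of all tested genes was 0.01. The libraries of the groups did not overlap for 8 of the 10 genes, but this held for 76.8% of all tested genes.

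**Figure D1:**
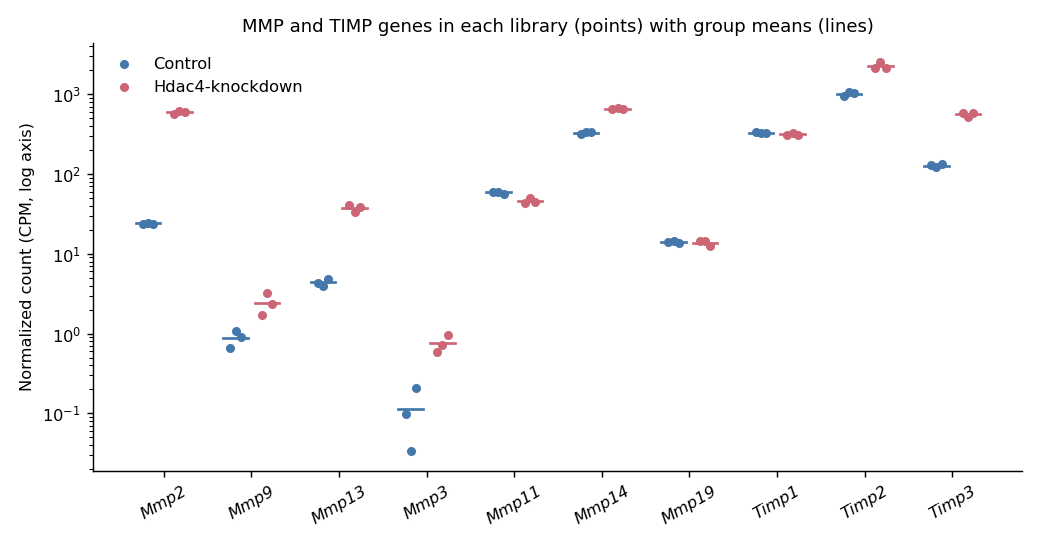
Normalized counts (CPM, log axis) of the 10 genes in each library, with points for libraries, lines for group means, blue for Control and red for Hdac4-knockdown. The groups stand apart for 8 genes and overlap for Mmp19 and Timp1, and the widest gap is that of Mmp2 (24.1 against 598 CPM).

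The gelatinases cleave denatured collagen and basement membrane collagen. Mmp2 (ENSMUSG00000031740; GRCm38 chromosome 8, 92827291 to 92853420, plus strand), gelatinase A, stood at 23.9, 24.7 and 23.7 CPM in the Control libraries and at 573, 621 and 600 CPM in the knockdown libraries. Every knockdown library was far above every Control library, and within each group the libraries lay close together. The means of 24.1 ± 0.508 and 598 ± 24.1 CPM (SD, n = 3) differed 24.8-fold, a log2 fold change of 4.63 (SE 0.0495, 95% interval 4.53 to 4.74, adjusted p = 5.10e-23). By p-value Mmp2 ranked 4 among the 14531 genes tested. Mmp9 (ENSMUSG00000017737; chromosome 2, 164940780 to 164955850, plus strand), gelatinase B, was a rare transcript, with 20, 32 and 26 reads in Control and 53, 104 and 70 reads in knockdown libraries. All 3 knockdown libraries were higher, but they spread almost as widely as the distance between the groups. Mmp9 was upregulated 2.76-fold, from 0.879 ± 0.209 to 2.42 ± 0.762 CPM (SD, n = 3; log2 fold change 1.46, SE 0.279, adjusted p = 0.000101).

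Mmp13 (ENSMUSG00000050578; chromosome 9, 7272514 to 7283331, plus strand) is the main interstitial collagenase of rodents and is known as a target of Runx2 in osteoblasts and hypertrophic chondrocytes. Its level was 4.35, 3.94 and 4.88 CPM in Control and 40.6, 33.1 and 39.1 CPM in knockdown libraries. The groups were well separated, and knockdown replicate 2 was the lowest of its group. The means of 4.39 ± 0.468 and 37.6 ± 4.0 CPM (SD, n = 3) gave an 8.57-fold increase (log2 fold change 3.10, SE 0.10, 95% interval 2.89 to 3.31, adjusted p = 4.46e-16).

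Mmp3 (ENSMUSG00000043613; chromosome 9, 7445822 to 7455975, plus strand), stromelysin 1, cleaves proteoglycans and fibronectin and activates other MMP precursors. It was near the detection limit, with 3, 1 and 6 reads in Control and 18, 23 and 29 reads in knockdown libraries. The groups did not overlap, but Control libraries had 10 reads in all, against 70 in knockdown libraries. The ratio of these sums, scaled to library size, was 6.68, with an exact 95% interval of 3.42 to 14.5 that covers counting error only. Mmp3 was upregulated (log2 fold change 2.7, SE 0.512, adjusted p = 9.62e-05), and the size of its change rested partly on Control replicate 3, without which the log2 fold change was 3.42.

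Mmp11 (ENSMUSG00000000901; chromosome 10, 75923222 to 75936496, minus strand), stromelysin 3, differs from most secreted MMPs in that furin activates it inside the cell, and it cleaves serpins better than fibrillar collagen. It was the single downregulated gene of the 10. Its level was 59.4, 60.3 and 56.3 CPM in Control and 43.7, 50.6 and 45.0 CPM in knockdown libraries. Every knockdown library lay below every Control library, and knockdown replicate 2 was the closest to Control. Expression fell to 79.1% of Control, from 58.7 ± 2.08 to 46.5 ± 3.69 CPM (SD, n = 3; log2 fold change -0.34, SE 0.0590, adjusted p = 3.89e-05). Of its 2778 exon bases, 155 (5.58%) are shared with Chchd10 on the opposite strand, and the reads carry no strand.

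Mmp14 (ENSMUSG00000000957; chromosome 14, 54431612 to 54445364, plus strand), a transmembrane collagenase, is the activator of the Mmp2 precursor. Its level was 318, 334 and 334 CPM in Control and 650, 670 and 651 CPM in knockdown libraries. It had the smallest spread relative to its level in the knockdown group, and the groups did not overlap. Mmp14 was upregulated, from 329 ± 8.95 to 657 ± 11.1 CPM (SD, n = 3; 2.00-fold, SE of the log2 value 0.0380, adjusted p = 5.97e-15). Mmp19 (ENSMUSG00000025355; chromosome 10, 128790910 to 128800824, plus strand), a secreted protease of basement membrane proteins, stood at 14.1, 14.6 and 13.6 CPM in Control and at 14.5, 14.3 and 12.5 CPM in knockdown libraries. The groups overlapped (log2 fold change -0.03, 95% interval -0.21 to 0.15, adjusted p = 0.753), and the sign changed with the scaling, to 0.06 under upper quartile factors. Overlapping genes, mainly Tmem198b, share 1001 of its 3533 exon bases.

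The inhibitors differed among themselves. Timp3 (ENSMUSG00000020044; chromosome 10, 86300372 to 86349506, plus strand) is held in the extracellular matrix and also inhibits ADAM-type sheddases such as Adam17. It stood at 128, 123 and 133 CPM in Control and at 585, 514 and 575 CPM in knockdown libraries. All knockdown libraries were above all Control libraries, with means of 128 ± 5.16 and 558 ± 38.6 CPM (SD, n = 3). The increase was 4.37-fold (log2 fold change 2.13, SE 0.0503, adjusted p = 3.12e-18). Timp3 lies inside Syn3 on the opposite strand and shares 1733 of 8144 exon bases with it, but Syn3 itself had 9 reads over the Control libraries and 67 over the knockdown libraries.

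Timp2 (ENSMUSG00000017466; chromosome 11, 118301069 to 118355740, minus strand), the partner of Mmp14 in the activation of Mmp2, stood at 944, 1069 and 1028 CPM in Control and at 2150, 2525 and 2109 CPM in knockdown libraries. Knockdown replicate 2 was the highest, and the groups did not overlap. The level rose 2.23-fold, from 1014 ± 63.8 to 2262 ± 229 CPM (SD, n = 3; log2 fold change 1.16, SE 0.0571, adjusted p = 3.98e-13). Timp1 (ENSMUSG00000001131; chromosome X, 20870166 to 20874735, plus strand), a soluble inhibitor that is weak against membrane-type MMPs, stood at 337, 326 and 323 CPM in Control and at 305, 329 and 313 CPM in knockdown libraries. Knockdown replicate 2 lay within the Control range, so the groups overlapped. The log2 fold change was -0.06 (95% interval -0.14 to 0.02, adjusted p = 0.187). Without knockdown replicate 2 it was -0.09 with an adjusted p of 0.0383, whereas under upper quartile factors it was 0.03. Two-sided exact permutation tests gave p = 0.8 for Mmp19 and p = 0.3 for Timp1, and p = 0.1, the smallest that 3 against 3 libraries allow, for each of the other 8 genes.

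Levels were then compared between genes per kilobase of exon. In Control cells Timp1 was the most abundant transcript of the 10, at 370 ± 8.62 CPM per kb (SD, n = 3), followed by Timp2 at 260 ± 16.4 and Mmp14 at 55.1 ± 1.5 CPM per kb. Mmp11 came next at 21.1 ± 0.749, then Timp3 at 15.7 ± 0.633, Mmp2 at 7.15 ± 0.151 and Mmp19 at 3.99 ± 0.135 CPM per kb. Mmp13 (1.64 ± 0.175), Mmp9 (0.248 ± 0.0591) and Mmp3 (0.0633 ± 0.0498 CPM per kb) were the lowest. No neighbours in this order overlapped between libraries.

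In knockdown cells the order was different. Timp2 was the highest at 580 ± 58.8 CPM per kb, followed by Timp1 at 355 ± 13.7. Mmp2, which ranked 6 of the 10 in Control, ranked 3 at 177 ± 7.15 CPM per kb and lay above Mmp14 at 110 ± 1.86. Timp3 followed at 68.5 ± 4.74, and Mmp11 at 16.7 ± 1.33 was close to Mmp13 at 14.1 ± 1.5 CPM per kb. Mmp19 stood at 3.91 ± 0.314, and Mmp9 (0.684 ± 0.215) and Mmp3 (0.418 ± 0.108 CPM per kb) were the neighbours whose libraries overlapped. With exon bases shared with other genes left out of the lengths, a choice made after the data were seen, both orders were the same.

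The summed level of the 7 MMP genes was 87.7, 90.9 and 89.4 CPM per kb in the Control libraries and 315, 333 and 323 CPM per kb in the knockdown libraries. That of the 3 TIMP genes was 638, 657 and 644 CPM per kb in Control and 967, 1081 and 964 CPM per kb in knockdown libraries. Both sums were higher in every knockdown library, the MMP sum 3.62-fold and the TIMP sum 1.55-fold. The TIMP sum divided by the MMP sum was therefore lower, at 7.23 ± 0.0349 in Control and 3.10 ± 0.134 in knockdown libraries (SD, n = 3). This is a ratio of transcript levels. Protein amounts and enzyme activity were not measured.

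The make-up of both sums shifted. Mmp14 formed 61.7% ± 0.923 of the MMP sum in Control and 34.1% ± 0.472 in knockdown cells (SD, n = 3), although its own level rose 2.00-fold. Mmp2 formed 8.0% ± 0.121 in Control and 54.8% ± 0.749 in knockdown cells. Mmp11 went from 23.7% ± 0.867 to 5.16% ± 0.273. Among the inhibitors, Timp1 made up 57.3% ± 1.96 of the sum in Control and 35.4% ± 1.15 in knockdown cells, and Timp2 made up 40.3% ± 2.01 and 57.7% ± 1.97.

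**Figure D2:**
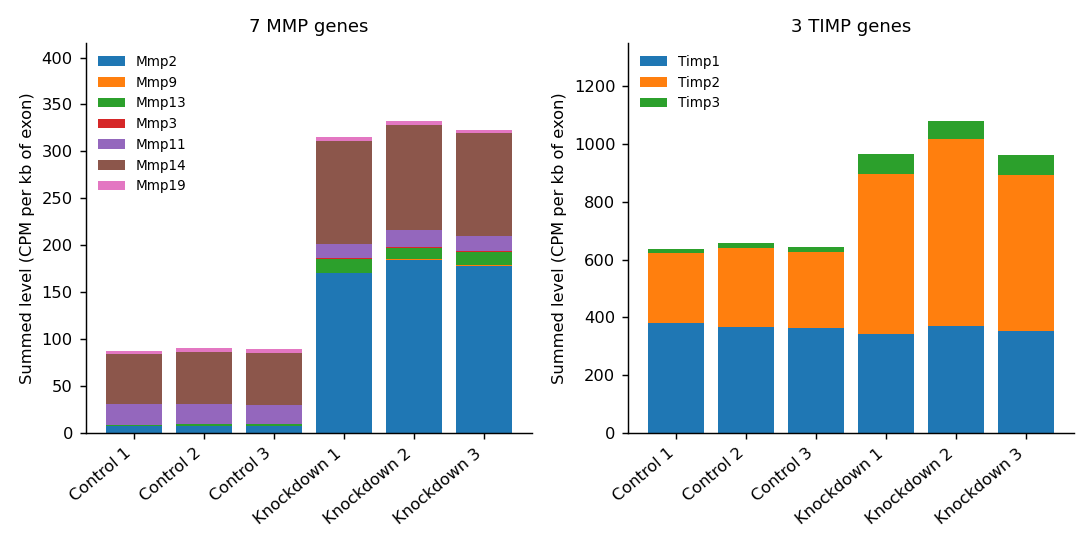
Summed levels per library (CPM per kb of exon) of the 7 MMP genes on the left and the 3 TIMP genes on the right, as bars from 0 divided by gene. Mmp2 fills 54.8% of the MMP bar in knockdown libraries against 8.0% in Control, and the Timp1 segment runs from 343.1 to 379.9 CPM per kb over the 6 libraries while that of Timp2 is larger in the knockdown libraries.

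Mmp13 and Mmp3 lie in a cluster of 10 Mmp genes on chromosome 9 that spans 427.1 kb, from 7272514 to 7699585. Of these, 4 passed the filter on low counts (Mmp13, Mmp12, Mmp3 and Mmp10), and all 4 were upregulated, beside 38.0% of all genes. Mmp12 and Mmp3 passed the filter through the knockdown libraries alone. Mmp10 reached its level in 1 Control library and 3 knockdown libraries, so it would not have passed on its Control libraries either. Mmp12, the macrophage elastase, had 3, 4 and 2 reads in Control and 144, 157 and 144 reads in knockdown libraries. Its ratio of summed reads was 47.2, with an exact 95% interval of 24.6 to 104 for counting error, and its log2 fold change was 5.50 (adjusted p = 1.34e-12). Mmp10, stromelysin 2, had 10, 12 and 8 reads in Control and 45, 48 and 45 reads in knockdown libraries (log2 fold change 2.12, adjusted p = 7.66e-06). The other 6 genes (Mmp1a, Mmp1b, Mmp7, Mmp8, Mmp20 and Mmp27) had at most 2 reads in any library. Mmp1a and Mmp1b are related copies, so how the counting divided reads between them is uncertain.

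Within 500 kb of the cluster, 8 other protein-coding genes were measured, named here after their values were seen. Birc3, an inhibitor of apoptosis, was counted 10, 9 and 15 times in Control and 219, 278 and 231 times in knockdown libraries. Its log2 fold change was 4.34 (adjusted p = 3.68e-13), but like Mmp10 it needed the knockdown libraries to pass the filter on low counts. Cfap300 was also upregulated (log2 fold change 1.52, adjusted p = 1.22e-09). Cep126 (-2.35, adjusted p = 1.83e-05) and Tmem123 (-0.34, adjusted p = 3.38e-06) were downregulated, as was Yap1 (-0.14, adjusted p = 0.0207), whose call was lost without Control replicate 3 (adjusted p = 0.0723) or knockdown replicate 3 (adjusted p = 0.188), with library size alone (0.164), with upper quartile factors (0.415) and with at least 10 reads in every library (0.0863). Birc2, next to Birc3, had a log2 fold change of 0.16 (adjusted p = 0.0680). It passed the test without knockdown replicate 2 (adjusted p = 0.0456), with at least 10 reads in every library (0.0279), with library size alone (0.0161) and with upper quartile factors (0.00663). Dync2h1 (0.12, adjusted p = 0.160) and Dcun1d5 (0.03, adjusted p = 0.564) did not pass the test, but both passed with upper quartile factors (0.0190 and 0.0411) and Dync2h1 also with library size alone (0.0442). The genes around the cluster whose calls held under every alternative that tested them, Birc3, Cfap300, Cep126 and Tmem123, differed in direction. With at least 10 reads in every library, Birc3 and Cep126 were not tested.

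**Figure D3:**
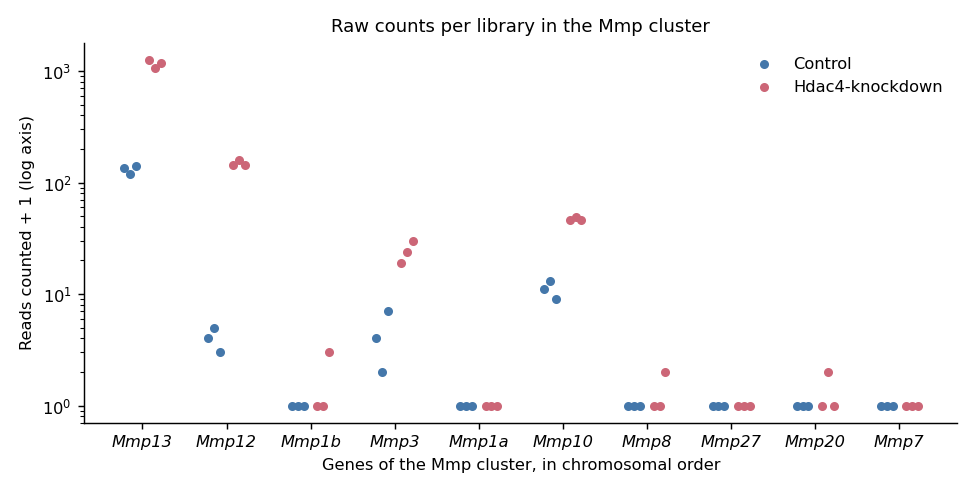
Raw read counts plus 1 (log axis) in each library for the 10 Mmp genes of the chromosome 9 cluster, in chromosomal order, with blue for Control and red for Hdac4-knockdown. Mmp13, Mmp12, Mmp3 and Mmp10 are higher in every knockdown library, and the other 6 genes have at most 2 reads in any library.

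Promoter sequences from RefSeq (GRCm38.p6, 250 bases before to 50 bases after the annotated start) were found for 7 of the 10 genes, that is for Mmp3, Mmp11, Mmp13, Mmp14, Timp1, Timp2 and Timp3. The letters of an AP-1 site (TGANTCA, its own reverse complement), of a RUNX site (TGTGGT, either strand), of a TATA box (TATAAA, sense strand only), of a GC box (GGGCGG, either strand) and of an ETS core (AGGAAG, either strand) were searched in each. These motifs are present in 7.81%, 16.8%, 8.32%, 35.7% and 35.4% of all 32851 promoter windows. The parts before the start are shown for Mmp13 and Mmp3, the upregulated cluster genes among the 10, and for Timp3 and Timp1, the inhibitor with the largest increase and the one that did not pass the test. The Timp3 sequence has 210 bases and stops before the start in GENCODE, which lies upstream of the RefSeq start (86300372 against 86300412). Capitals mark AP-1, RUNX and TATAAA letters.
Mmp13 (chr9:7272264-7272513, plus strand): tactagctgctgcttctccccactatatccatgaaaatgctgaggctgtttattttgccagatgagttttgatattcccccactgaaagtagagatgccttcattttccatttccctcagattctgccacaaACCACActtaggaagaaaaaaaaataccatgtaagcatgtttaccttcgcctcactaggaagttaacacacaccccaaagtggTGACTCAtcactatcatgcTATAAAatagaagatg
Mmp3 (chr9:7445572-7445821, plus strand): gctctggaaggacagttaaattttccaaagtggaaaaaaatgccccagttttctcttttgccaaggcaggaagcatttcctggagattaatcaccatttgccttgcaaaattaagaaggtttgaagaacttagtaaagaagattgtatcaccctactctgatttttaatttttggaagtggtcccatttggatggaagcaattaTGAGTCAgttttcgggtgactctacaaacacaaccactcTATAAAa
Timp3 (chr10:86300162-86300371, plus strand): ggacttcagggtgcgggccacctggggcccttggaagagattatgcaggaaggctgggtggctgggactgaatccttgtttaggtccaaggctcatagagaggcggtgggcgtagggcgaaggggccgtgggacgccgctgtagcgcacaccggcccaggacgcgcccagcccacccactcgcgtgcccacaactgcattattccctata
Timp1 (chrX:20869916-20870165, plus strand): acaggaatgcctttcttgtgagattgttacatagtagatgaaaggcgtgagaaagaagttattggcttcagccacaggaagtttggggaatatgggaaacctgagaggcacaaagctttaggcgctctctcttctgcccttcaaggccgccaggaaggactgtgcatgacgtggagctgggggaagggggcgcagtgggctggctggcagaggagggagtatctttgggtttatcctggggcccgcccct

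The Mmp13 window holds TGACTCA at position -35 from the start, TATAAA at -16 and the reverse complement of TGTGGT at -118. The Mmp3 window holds TGAGTCA at -46 and TATAAA at -7, and no RUNX letters. Neither AP-1 nor TATAAA letters were found in the windows of Mmp11, Mmp14, Timp1, Timp2 and Timp3, each of which holds at least 1 GC box, with 4 in Mmp11. Mmp14 holds RUNX letters at -114, and ETS letters occur in the windows of Mmp13, Mmp3, Mmp14, Timp1 and Timp3. AP-1 and TATAAA letters occur together in 327 of all windows (0.995%) and in at least 1 window of 8 of the 10 cluster genes. Those 8 are Mmp13, Mmp12, Mmp3 and Mmp10, which were upregulated, and Mmp1a, Mmp1b, Mmp7 and Mmp20, which had at most 2 reads in any library. The share is by window and the count by gene. Mmp7 and Mmp12 have 2 windows each, and in each gene only 1 of them holds AP-1 and TATAAA letters. A match of letters is not evidence of binding.

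Among 22 transcription factor genes known to act on Mmp promoters, 21 were tested, of which 14 were upregulated, 3 were downregulated and 4 did not pass the test, beside 38.0% up and 37.1% down over all genes. Their changes were mostly small, with a median log2 fold change of 0.23. Of the AP-1 subunits, Fosb went from 3.16 ± 0.390 to 13.9 ± 0.649 CPM (SD, n = 3; log2 fold change 2.13, adjusted p = 1.83e-12) and Fos from 9.94 ± 0.766 to 20.7 ± 1.81 CPM (1.06, adjusted p = 2.20e-09). The more abundant subunits had smaller log2 fold changes, 0.33 for Fosl1, 0.29 for Junb and 0.14 for Jun, all upregulated, and 0.09 for Fosl2, which did not pass the test. Fosl1 shares 57.2% of its exon bases with Ccdc85b, which had 2982 reads over the Control libraries and 8285 over the knockdown libraries. Of the ETS factors, Etv4 was downregulated from 108 ± 4.10 to 30.6 ± 2.41 CPM (-1.83, adjusted p = 3.04e-16), as was Ets2 (-0.91), whereas Etv5 (0.82), Etv1 (0.48) and Ets1 (0.23) were upregulated. The abundant AP-1 and other ETS genes are named here after their values were seen. Runx2, the osteoblast regulator upstream of Mmp13, rose by a log2 fold change of 0.19 (adjusted p = 0.00719), and this call was lost without Control replicate 2 (0.13, adjusted p = 0.0731). The log2 fold change of Mmp13 was 3.10, and the part of Runx2 in it was not tested.

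The rest of the family comprises 17 Mmp and Timp genes. The test could be made for 8, with 5 upregulated, 1 downregulated and 2 not passing, where 38.0% of all genes were up and 37.1% down. Of the 5, Mmp12 and Mmp23 passed the filter on low counts through the knockdown libraries alone, so they could be counted only as higher there. Mmp10 reached the filter's level in 1 Control library, so it too needed the knockdown libraries to pass. Mmp16, a membrane-type MMP like Mmp14, had 58, 48 and 58 reads in Control and 1321, 1231 and 1345 reads in knockdown libraries (log2 fold change 4.50, adjusted p = 2.51e-18). Mmp23 had 0, 3 and 0 reads in Control and 23, 22 and 24 reads in knockdown libraries, and its ratio of summed reads was 21.9, with an exact 95% interval of 7.20 to 109. Its fitted log2 fold change of 4.30 (adjusted p = 8.62e-06) depended on Control replicate 2, the only Control library with reads, and was 7.5 without it. Mmp28, also called epilysin, rose from 23.0 ± 1.63 to 47.9 ± 2.09 CPM (SD, n = 3; log2 fold change 1.06, adjusted p = 1.16e-11), and 12.0% of its exons lie over another gene.

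Mmp15, a membrane-type MMP closely related to Mmp14, was downregulated, with 180, 199 and 150 reads in Control and 79, 74 and 108 reads in knockdown libraries (log2 fold change -1.08, adjusted p = 9.01e-06). The membrane-type genes Mmp14, Mmp15 and Mmp16 thus included changes in both directions. Of the membrane-anchored Mmp17 and Mmp24, Mmp17 had a log2 fold change of -0.17 (adjusted p = 0.704). Mmp24 had 3, 13 and 1 reads in Control and 7, 11 and 13 reads in knockdown libraries (0.79, adjusted p = 0.253), and without Control replicate 2 its log2 fold change was 2.22 (adjusted p = 0.0130). BC029722 covers 13.6% of its exon bases. With Mmp10, Mmp12 and Mmp23 left out by a minimum of 10 reads in every library, 2 of the other family genes were upregulated, Mmp16 and Mmp28.

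**Figure D4:**
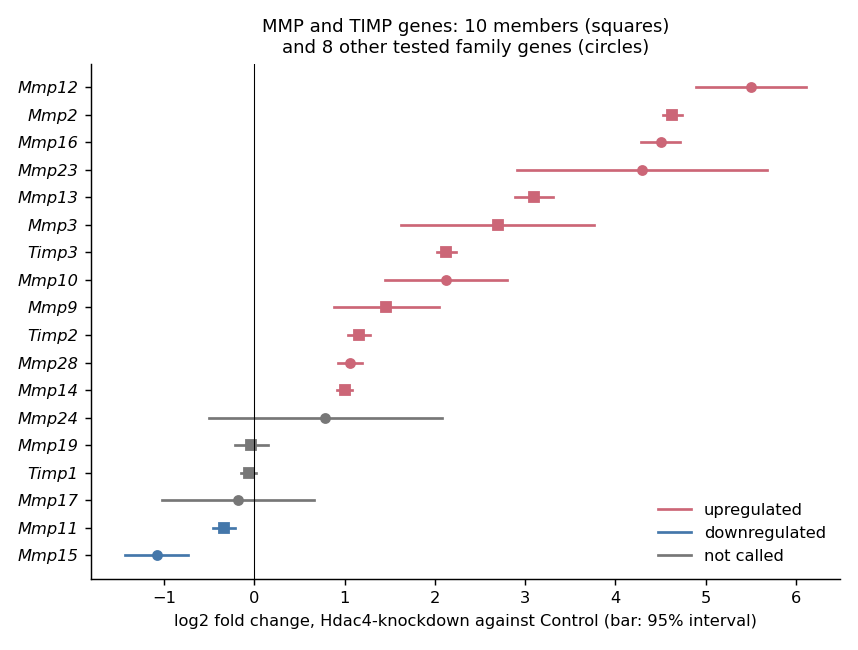
Log2 fold changes of Hdac4-knockdown against Control with 95% intervals for the 10 genes (squares) and the 8 other tested family genes (circles), coloured by call. Mmp12 (5.50), Mmp2 (4.63) and Mmp16 (4.50) lie farthest to the right, and Mmp15 (-1.08) and Mmp11 (-0.34) are the downregulated genes.

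Genes that activate, anchor or clear MMPs were examined next. Of 22 such genes, 17 were tested, of which 8 were upregulated, 7 were downregulated and 2 did not pass the test, beside 38.0% up and 37.1% down over all genes. Their median log2 fold change was 0.06. Plau, the urokinase that generates plasmin, fell from 75.9 ± 3.10 to 16.8 ± 1.16 CPM (SD, n = 3; log2 fold change -2.18, adjusted p = 6.10e-17). Its receptor Plaur fell from 160.0 ± 5.28 to 74.7 ± 5.12 CPM (-1.10, adjusted p = 1.42e-13). Serpine2, an inhibitor of urokinase, rose from 9.95 ± 0.492 to 25 ± 1.54 CPM (1.33, adjusted p = 1.04e-11).

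At the cell surface, Cav1, the caveolar coat protein, rose from 284 ± 5.00 to 753 ± 13.4 CPM (SD, n = 3; log2 fold change 1.40, adjusted p = 2.13e-17). Adam12, a membrane metalloproteinase, rose from 35.1 ± 1.23 to 77.9 ± 1.67 CPM (1.15, adjusted p = 7.76e-14). Sparc, a collagen-binding matrix protein, rose from 941 ± 15.5 to 1930 ± 31.8 CPM (1.04, adjusted p = 9.89e-16). Named after their values were seen, Reck, a membrane-anchored inhibitor of MMPs, had a log2 fold change of 0.81 (adjusted p = 5.91e-08), and Lrp1, the endocytic receptor that clears MMPs and TIMPs, one of 0.60 (adjusted p = 5.93e-11). Other genes of the list went down, also named after their values were seen. These were Adam17 (log2 fold change -0.82, adjusted p = 1.08e-11), Cd44 (-0.49), Ddr1 (-0.39) and Bsg (-0.25), whereas Ddr2 (0.33) was upregulated. Furin, the convertase that activates Mmp11 and Mmp14, had a log2 fold change of 0.06 (adjusted p = 0.150). Its call depended on the scaling, since it passed the test with library size alone, with upper quartile factors and with at least 10 reads required in every library.

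**Figure D5:**
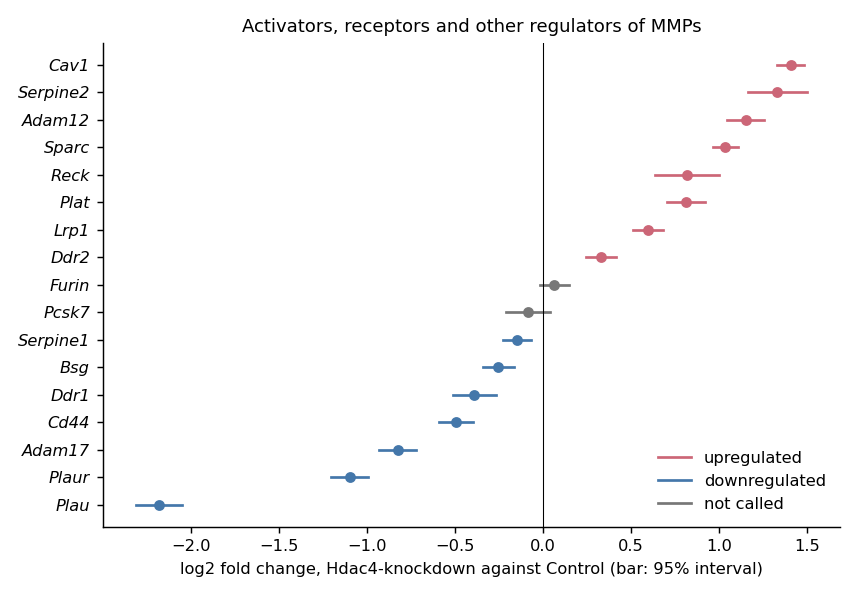
Log2 fold changes of Hdac4-knockdown against Control with 95% intervals for the 17 tested activators, receptors and other regulators of MMPs, coloured by call. Plau (-2.18) and Plaur (-1.10) stand at the low end and Cav1 (1.40) at the high end.

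The cell type was checked by marker genes. Of 10 pre-osteoblast markers, 7 were tested, with 5 upregulated and 2 downregulated (38.0% and 37.1% over all genes), and their summed level was 4771 to 4783 CPM in Control and 21440 to 22280 CPM in knockdown libraries. The collagen genes Col1a1 (338 to 11015 CPM) and Col1a2 (1214 to 8572 CPM) carried this increase, whereas Spp1, the most abundant marker in Control, fell from 3154 to 2046 CPM (log2 fold change -0.62), and Msx2 was also downregulated. Sp7 (log2 fold change 4.18) and Dlx5 (5.41) were also upregulated, but both passed the filter on low counts through the knockdown libraries alone. Their Control libraries held 4, 7 and 2 reads of Sp7 and 4, 8 and 5 reads of Dlx5. Alpl, a defining enzyme of the lineage, had at most 3 reads in any library. Since Mmp9 and Mmp12 are known from osteoclasts and macrophages, markers of those cells were examined too. Of 8, 2 were tested and both were upregulated, beside 38.0% of all genes. The summed level of the 8 was 2.60 to 2.94 CPM in Control and 75.7 to 83.3 CPM in knockdown libraries. Most of it was Ctsk, a collagen-degrading protease (2.59 ± 0.275 and 78.4 ± 4.0 CPM, SD, n = 3). The macrophage receptor Csf1r had 3, 4 and 6 reads in Control and 19, 23 and 22 reads in knockdown libraries (log2 fold change 2.20, adjusted p = 0.000195). It passed the filter on low counts through the knockdown libraries alone. Itgam had no reads in Control and 5, 2 and 4 reads in knockdown libraries, Ptprc and Acp5 had at most 9 reads in any library, and Adgre1 and Calcr had no reads in any library and Oscar had at most 2.

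Since Mmp13 is also a gene of hypertrophic chondrocytes, 4 chondrocyte markers were examined. Of these, 3 were tested. Col2a1 (log2 fold change 5.93) and Col10a1 (3.62) were upregulated, beside 38.0% of all genes, and Sox9 did not pass the test. Acan had no reads in any library. Col10a1 rested on few reads, 1 in each Control library and 10, 19 and 14 in the knockdown libraries. It passed the filter on low counts through the knockdown libraries alone. The summed level of the 4 markers was 125 to 128 CPM in Control and 168.5 to 186 CPM in knockdown libraries. Most of it was Sox9 (means of 126 CPM in Control and 127 CPM in knockdown libraries), and Col2a1 (0.827 to 51.1 CPM) carried the increase. The 4 endothelial markers summed to 0.262 to 0.421 CPM in Control and to 2.81 to 3.16 CPM in knockdown libraries. The 4 epithelial markers summed to 5.65 to 6.45 and to 7.08 to 8.56 CPM. In each list 1 gene was tested and was upregulated, beside 38.0% of all genes. These were Pecam1, which passed the filter on low counts through the knockdown libraries alone, and Krt14. The part of these markers in the levels of the Mmp and Timp genes was not tested. In bulk RNA, a change in the number of cells that express a gene and a change in its RNA per cell cannot be told apart.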

How the data were processed

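For each library the authors deposited raw read counts per Ensembl gene, without normalization. The submitters' processing notes name FastQC, STAR 2.7.3a, HTSeq 0.12.4 and mm10. The library kit keeps no strand. Summary lines for reads not assigned to a single gene (14.3% to 15.0% of the total) were left out. They include reads ambiguous between genes (5.84% to 6.51%). Symbols and positions came from GENCODE M21 (GRCm38), which held 53706 of 53801 identifiers, and promoter windows from RefSeq.

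The groups were compared by edgeR 4.0.16 under R 4.3.3 (filterByExpr, TMM, quasi-likelihood test, no covariate, Benjamini-Hochberg adjustment over 14531 genes). Calls needed an adjusted p below 0.05 with a log2 fold change outside -0.05 to 0.05, thresholds taken from the study's text, which also names the knockdown virus as Hdac4-shRNA3. CPM are TMM-normalized, and CPM per kb divide by the union of exon bases. SE and 95% intervals are on the log2 scale. In simulated data of 13664 genes for this comparison, edgeR recovered 170 of 188 tested planted changes (90.4%), and 12 of 182 calls were false. Changes were planted in 200 genes, in both directions, with the same dispersion for every gene. The real data had far more called genes, so these rates do not carry over to them. Same-group libraries differed by more than sampling noise (chi-square per degree of freedom 3.38 to 9.15).

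The 10 genes and all lists were chosen with earlier results of these data known. Named were the 10 genes, Hdac4, the tested family genes, up to 8 regulators and up to 6 promoter factors called with a log2 fold change beyond 1 in size, and genes said to be named after their values were seen or with the markers. Jund, a promoter factor on the list, shares 52.6% of its exon bases with another gene and is listed at 0 in every library. Alternatives were DESeq2 1.42.0, limma-voom (limma 3.58.1), RLE, upper quartile or library size scaling, other filters and thresholds, the replicate number as a block, and leaving out each library. They were fitted to all genes. The unshared exon length was added after seeing the data.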

Additional observations from a re-analysis of the deposited data

How the results depend on the processing

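All 7 upregulated genes of the 10 kept their direction and call under every alternative that tested them. With at least 10 counts in every library 6 remained, because Mmp3 was not tested. At log2 fold change thresholds of 0.5 and 1, 3579 and 2397 of all genes were upregulated and 2879 and 1543 were downregulated, and 0 of the 10 genes were downregulated. Without a single library, 1 to 2 of the 10 were downregulated, the additional one being Timp1. The sign of genes near 0 was unstable. Mmp19 had a log2 fold change of 0.0068 with at least 10 counts in every library, 0.026 with library size alone, 0.058 with upper quartile factors and -0.069 to 0.039 without single libraries. Timp1 reached 0.029 with upper quartile factors and -0.089 to -0.028 without single libraries. Mmp17 ranged from -0.35 to 0.062 and Dcun1d5 from -0.0035 to 0.086 without single libraries. Upper quartile factors moved the median log2 fold change of all genes by 0.089, and no other scaling moved it by more.

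The labels do not say that replicate numbers pair the groups. Same-numbered libraries deviated together with correlations of -0.0052, 0.0956 and 0.0206, and differently numbered libraries with -0.082 to 0.0654. Whether same-numbered libraries share a batch cannot be judged from these values. With the replicate block, 7 of the 10 genes were upregulated and 1 was downregulated, as without it, and over all genes 5523 were upregulated and 5441 downregulated.

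Depth limits Mmp3, Mmp9, Mmp10, Mmp12, Mmp17, Mmp23 and Mmp24, since their Control libraries hold few reads.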
